A study of Arabidopsis thaliana with 8 samples.

Results

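The phosphate starvation response genes described here are 10 genes, PS2, PEPC1, PAP17, PHT1;4, G3Pp1, SPX1, SPX3, MGD3, SQD2 and SRG3, which are represented by 10 of the 22746 probe sets analysed. They were chosen by the log2 differences between primed and unprimed seedlings in these arrays and are listed by gene identifier, so these differences are given as a description, without a test. The study looked for genes associated with heat stress memory in whole seedlings of wild-type Arabidopsis thaliana, accession Col-0, that were 5 days old at treatment. Primed seedlings had received 1.5 h at 37 °C, then 1.5 h of recovery at 22 °C and finally 45 min at 44 °C, with the heat given in darkness, and were harvested after 4, 8, 24 or 48 h of the memory phase that followed. Unprimed seedlings were collected at the same 4 times without this treatment, and whether they were darkened alike is not stated. Both kinds grew on MS agar with 1% sucrose in cycles of 16 h light and 8 h dark, and phosphate supply was not varied. Each of the 8 conditions is 1 Affymetrix ATH1 array of a pool of seedlings, so that the spread between pools is unknown and no difference at a single time can be tested.

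Plants that run short of phosphate switch on a conserved set of genes. The MYB-type transcription factor PHR1 activates these genes, and SPX proteins, which sense inositol pyrophosphates, hold PHR1 back when phosphate is ample. The induced genes encode phosphate transporters, phosphatases and other enzymes that free phosphate from organic compounds, and enzymes that replace phospholipids of membranes by galactolipids and sulfolipids. Because their transcripts rise when internal phosphate falls, several of the 10 genes are used as markers of phosphate status in seedlings.

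Values are log2 expression as deposited, on a scale with a floor at 2.0. On each array 26.3 to 26.9% of the values lay within 0.05 of this floor, and the array medians lay between 7.0 and 7.08. Signals of different probe sets are not comparable with each other, so a level is set only against the same probe set on another array. HSP21, a small heat shock protein, had log2 values between 10.85 and 14.62 on the primed arrays and of 2.0 on every unprimed array, so the labels of priming held. Of the 10 genes, 9 have a probe set of their own. PHT1;4 shares its probe set with PHT1;7, and their transcripts cannot be told apart. All 10 probe sets were kept without a filter on low values. SPX3 was at the floor in 7 of the 8 arrays, and MGD3 reached it in the primed arrays of 4 and 8 h.

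The transcripts of the phosphate starvation genes were lowest relative to unprimed seedlings at 8 h for all but G3Pp1, which was lowest at 4 h, and 7 of the 10 were within 2-fold at 48 h. At 8 h, 9 of the 10 were at least 2-fold lower in primed seedlings, as were 7.91% of all probe sets, and the median log2 difference, primed minus unprimed, was -3.13, while none was higher (7.33%). At 4 h, 5 were lower (9.93% of all probe sets) and none was higher (9.36%), with a median of -1.10, and all 5 were lower at 8 h too. At 24 h, 1 was lower (1.67%) and 1 was higher (2.76%), with a median of -0.28. At 48 h, 2 were lower (0.932%), 1 was higher (0.747%), and the median was 0.14. Over all probe sets the median was 0.00 at every time. These counts describe the contrast on which the genes were listed, and nothing is read from their distance to the shares of all probe sets. In a pool of whole seedlings, fewer cells that contain a transcript and less transcript per cell cannot be told apart.

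**Figure D1:**
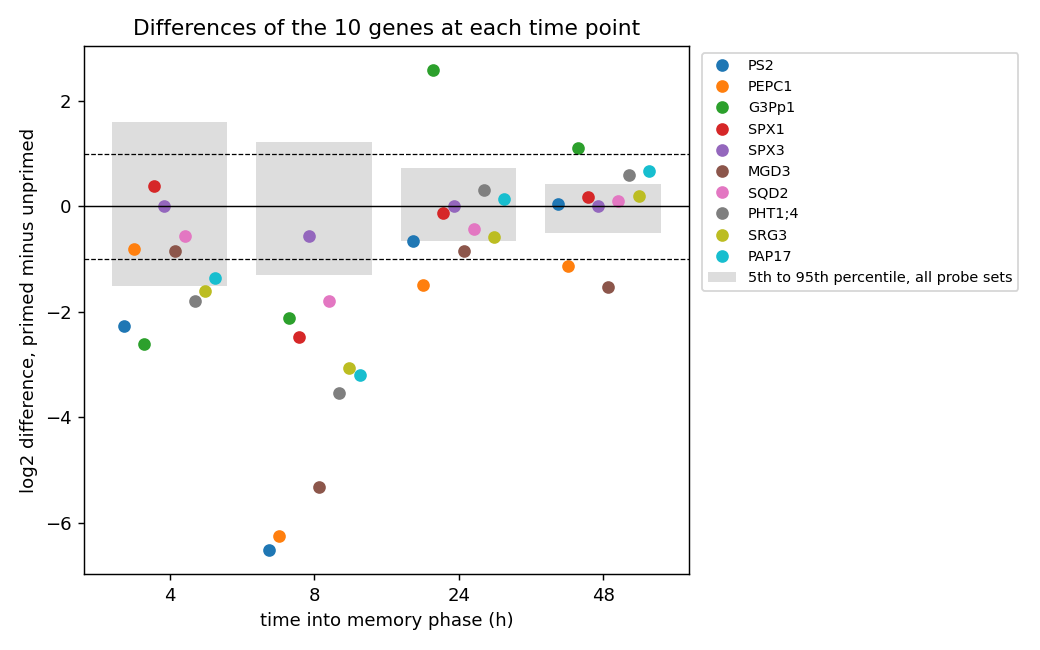
Log2 difference between the primed and the unprimed array (y axis) at 4, 8, 24 and 48 h (x axis), with 1 point per gene, dashed lines at 2-fold and grey bars from the 5th to the 95th percentile of all 22746 probe sets. At 8 h the points lie between -6.52 and -0.56, and at 48 h between -1.53 and 1.11.

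The phosphatase genes PS2, PEPC1 and PAP17 were all at least 2-fold lower in primed seedlings at 8 h, PS2 and PEPC1 by the largest differences among the 10 genes. PS2 (AT1G73010), a pyrophosphatase, had log2 values of 2.49, 2.69, 3.69 and 4.80 in primed seedlings at 4, 8, 24 and 48 h, against 4.76, 9.21, 4.34 and 4.75 in unprimed seedlings. The unprimed array of 8 h stood far above the other 7, and the primed values climbed from near the floor to the unprimed level at 48 h. The log2 differences were -2.27, -6.52, -0.65 and 0.05, the difference at 8 h being 91.8-fold.

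PEPC1 (AT1G17710) encodes a phosphatase of phosphoethanolamine and phosphocholine. Its values were 2.26, 2.39, 3.33 and 4.38 in primed seedlings, against 3.07, 8.64, 4.82 and 5.50 in unprimed seedlings at the same 4 times. Every primed array was below the unprimed array of its time, with log2 differences of -0.81, -6.25, -1.49 and -1.12. Among the 10 genes PEPC1 alone was at least 2-fold lower at 24 h. Against the mean of the unprimed arrays of 4, 24 and 48 h, PEPC1 gave -2.20 at 4 h and -0.08 at 48 h. The purple acid phosphatase gene PAP17 (AT3G17790) gave 8.24, 7.75, 8.42 and 9.65 in primed seedlings and 9.59, 10.94, 8.27 and 8.98 in unprimed seedlings. Its difference changed sign between the early and the late times, with -1.35 and -3.19 at 4 and 8 h and 0.15 and 0.67 at 24 and 48 h. The sign at 24 h depends on the control. Against the mean of the unprimed arrays of 4, 24 and 48 h, PAP17 gave -0.71, -1.20, -0.53 and 0.70 at the 4 times.

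Both transport genes were lower in primed seedlings at 4 and 8 h, and G3Pp1 was higher at 24 and 48 h. PHT1;4 (AT2G38940) encodes a high-affinity phosphate transporter of the plasma membrane. The probe set that it shares with PHT1;7 gave 4.25, 3.63, 5.38 and 5.81 in primed seedlings, against 6.04, 7.17, 5.07 and 5.21 in unprimed seedlings. The primed arrays of 4 and 8 h were below all 4 unprimed arrays, and those of 24 and 48 h lay within the unprimed range. This corresponds to log2 differences of -1.79, -3.54, 0.31 and 0.60.

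G3Pp1 (AT3G47420), a member of the glycerol-3-phosphate permease family, had values of 5.84, 7.06, 8.30 and 9.03 in primed seedlings, against 8.45, 9.17, 5.71 and 7.92 in unprimed seedlings. In primed seedlings each time was above the one before, whereas the unprimed array of 24 h was the lowest of all 8. The log2 differences were -2.61 and -2.11 at 4 and 8 h, and 2.59 and 1.11 at 24 and 48 h. The difference at 24 h rests on the low unprimed array of that time, since G3Pp1 differed by 2.21 between the unprimed arrays of 48 and 24 h. Against the mean of the unprimed arrays of 4, 24 and 48 h it became 0.94 at 24 h, below 2-fold, and -0.30 at 8 h.

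The SPX genes encode regulators that restrain PHR1 and are themselves induced by phosphate shortage. SPX1 (AT5G20150) gave 10.58, 8.84, 9.22 and 10.93 in primed seedlings and 10.20, 11.32, 9.35 and 10.75 in unprimed seedlings. Primed and unprimed arrays were close at 4, 24 and 48 h (log2 differences of 0.38, -0.13 and 0.18), and 8 h was the only time past 2-fold, with -2.48. SPX3 (AT2G45130) was at 2.0 in all 4 primed arrays, against 2.56 in the unprimed array of 8 h and 2.0 in the other 3 unprimed arrays. Its difference of -0.56 at 8 h did not reach 2-fold, and its differences of 0.00 at the other times compare values at the floor and do not measure a lack of change.

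Genes of membrane lipid remodelling were lower in primed seedlings at 8 h as well, MGD3 by the largest difference of the 3. MGD3 (AT2G11810), a galactolipid synthase of the outer plastid envelope, had values of 2.05, 2.0, 2.84 and 2.89 in primed seedlings, against 2.89, 7.33, 3.69 and 4.42 in unprimed seedlings. As with PS2 and PEPC1, the unprimed array of 8 h was far above all others. The log2 differences were -0.84, -5.33, -0.85 and -1.53, and those of 4 and 8 h are limited by the floor, where the primed arrays ended. Against the mean of the unprimed arrays of 4, 24 and 48 h, MGD3 gave -1.62 at 4 h and -0.78 at 48 h.

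SQD2 (AT5G01220), which makes sulfolipid in the plastid, had the smallest difference at 8 h among the members at least 2-fold lower at that time. Its values were 7.63, 7.54, 7.83 and 8.19 in primed seedlings and 8.19, 9.34, 8.25 and 8.08 in unprimed seedlings, with differences of -0.56, -1.80, -0.42 and 0.11. SRG3 (AT3G02040), also named GDPD1, encodes a glycerophosphodiester phosphodiesterase, which acts on products of phospholipid breakdown. It gave 9.53, 8.78, 9.58 and 10.89 in primed seedlings, against 11.13, 11.85, 10.15 and 10.70 in unprimed seedlings. The log2 differences of SRG3 were -1.60, -3.07, -0.57 and 0.19, so that only the primed array of 48 h was above its unprimed partner.

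**Figure D2:**
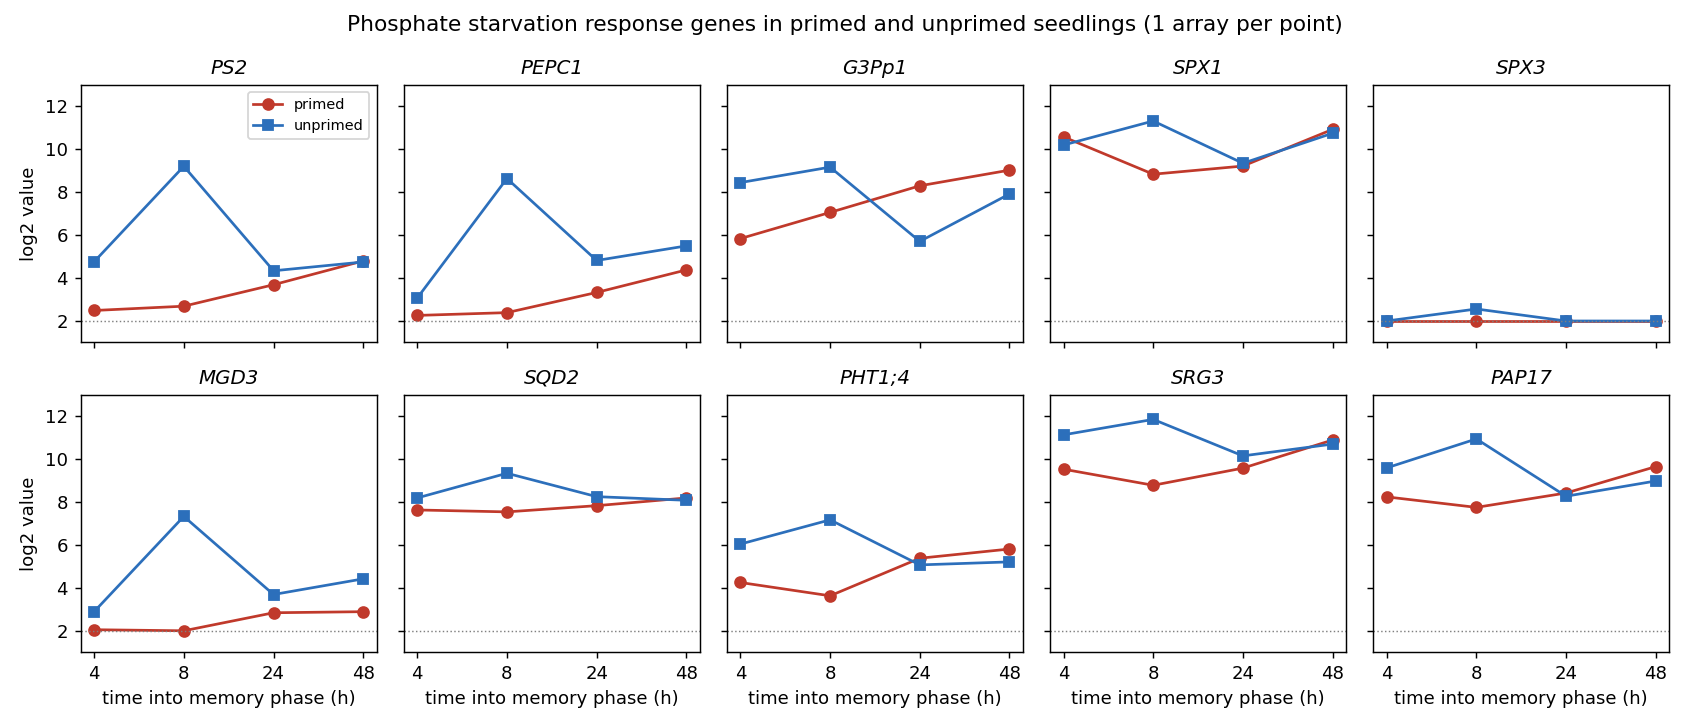
Log2 value (y axis) of each of the 10 genes in primed (circles) and unprimed (squares) seedlings by hours after priming (x axis, not to scale), 1 array per point, with the floor at 2.0 dotted. In each panel the highest point is the unprimed array of 8 h, which reached 9.21 for PS2 and 7.33 for MGD3, and 2.56 for SPX3.

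The difference at 8 h is made up of high values in the unprimed array and of low values in the primed one. For all 10 genes the unprimed array of 8 h held the highest value of the 8 arrays, as it did for 8.80% of all probe sets and for 14.2% of the 3106 probe sets whose values span at least 2 on the log2 scale. Compared with the mean of the other 3 unprimed arrays, it was at least 2-fold higher for 9 of the 10 genes (1.83% of all probe sets), with a median excess of 1.77 on the log2 scale. The excess was 4.59 for PS2, 4.18 for PEPC1, 3.66 for MGD3, 1.99 for PAP17 and 1.17 for SQD2. Both arrays of 8 h are sides of the contrast on which the genes were listed, so neither the height of the unprimed array nor the drop of the primed one is an independent result, and nothing is read from the shares of all probe sets beside them. The primed array of 8 h, set against the mean of the same 3 unprimed arrays, was at least 2-fold lower for 7 of the 10 genes (7.35% of all probe sets), with a median of -1.46. The largest drops on this side were those of PEPC1 (-2.07), PS2 (-1.93), SRG3 (-1.88) and PHT1;4 (-1.81). SQD2 (-0.63), G3Pp1 (-0.30) and SPX3 (0.00) were within 2-fold on this side. For 8 of the 10 genes the primed array of 8 h was below every unprimed array, and for 7 genes the excess of the unprimed array was larger than the drop of the primed one. No share over all probe sets was computed for these counts, and nothing is read from them. Over all probe sets, the unprimed array of 8 h was at least 2-fold from the mean of the other unprimed arrays in 822 probe sets. For each of the others this number was 678 to 702. Its correlation with them, across probe sets, was between 0.989 and 0.993. The other 3 unprimed arrays correlated with each other between 0.99 (4 and 48 h) and 0.995 (24 and 48 h), with 0.991 for 4 and 24 h. With 1 array per condition, these values cannot show whether the array is typical of its condition.

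**Figure D3:**
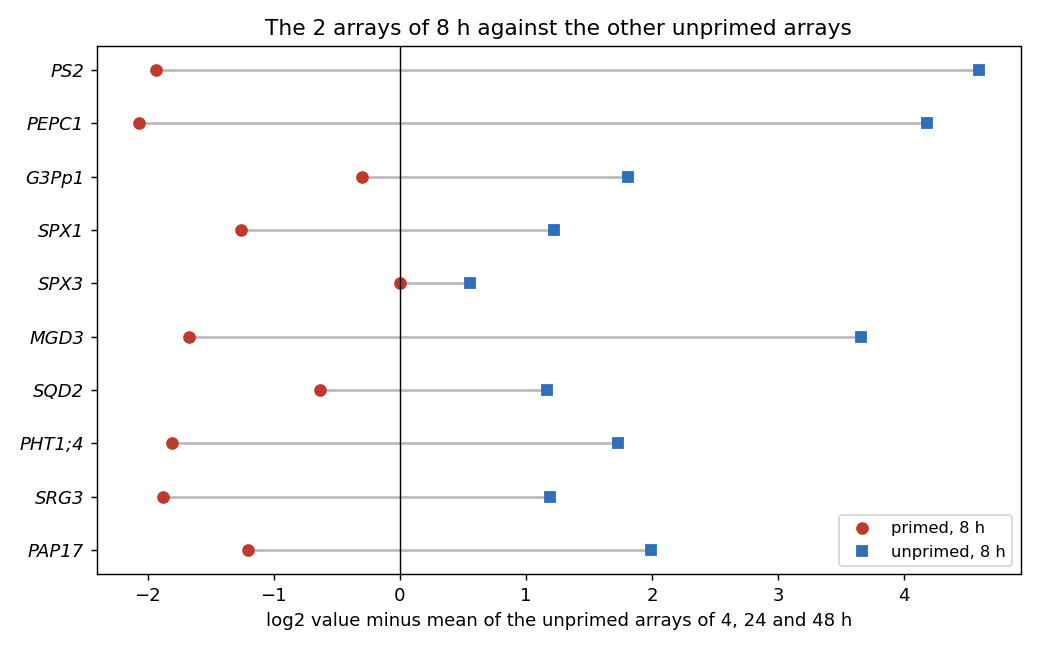
Log2 value of the primed (circles) and unprimed (squares) array of 8 h minus the mean of the unprimed arrays of 4, 24 and 48 h (x axis) for each gene (rows), the line between them being the difference at 8 h. The unprimed squares lie between 0.56 and 4.59, and the primed circles between -2.07 and 0.00.

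Within unprimed seedlings all 10 genes were highest at 8 h. From 4 to 8 h all 10 were higher, 7 of them at least 2-fold (2.02% of all probe sets in this direction, and 1.35% in the other), with a median of 1.14 and the largest increases in PEPC1 (5.57), PS2 (4.45) and MGD3 (4.44). From 8 to 24 h all 10 were lower, 9 of them at least 2-fold (3.46% of all probe sets, against 3.11% in the other direction), with a median of -2.38. From 24 to 48 h 8 of the 10 were higher again, with a median of 0.62. In this step G3Pp1 and SPX1 differed at least 2-fold (2.21 and 1.40), 2 of the 10 genes, as did 1.55% of all probe sets in this direction and 1.17% in the other. The arrays of 24 and 48 h come from harvests 1 day apart, and the clock time of each harvest is not given.

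Primed seedlings showed no such high point at 8 h. From 4 to 8 h, G3Pp1 was higher by 1.22 (5.47% of all probe sets were at least 2-fold higher), SPX1 changed by -1.74 (5.29% were lower), and the other 8 genes stayed within 2-fold. From 8 to 24 h, 9 genes were higher, 3 of them at least 2-fold (6.92% of all probe sets, and 5.64% in the other direction), and from 24 to 48 h 9 were higher again, 5 of them at least 2-fold (0.703%, and 1.50% in the other direction). These 5 were SPX1 (1.71), SRG3 (1.31), PAP17 (1.23), PS2 (1.11) and PEPC1 (1.05). The median of the 10 genes in this step was 0.89, beside 0.62 in unprimed seedlings. For the 9 genes other than SPX3, the primed array of 48 h held the highest of the 4 primed values, a count for which no share over all probe sets was computed. For 7 of the 10 it was above the unprimed array of 48 h, as for 7714 of all 22746 probe sets. In G3Pp1 it was so by at least 2-fold (0.747% of all probe sets) and in the other 6 by less.

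The 10 genes varied together over the 8 arrays. All 45 pairs had a positive Pearson correlation, with a median of 0.78 and a range from 0.44 to 0.99. PS2 and SQD2 followed the mean of the other members most closely (0.98 and 0.96), and G3Pp1 and SPX1 least closely (0.61 and 0.68). All genes share the same 8 arrays, of which the unprimed array of 8 h is the highest for each of them, so these values are descriptive.

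Other genes of phosphate metabolism were counted beside the 10. The 4 lists of signalling, transport, phosphate release and lipid remodelling genes hold 86 probe sets. At 8 h, 10 of these (11.6%) were at least 2-fold lower in primed seedlings, beside 7.91% of all probe sets, and 9 (10.5%) were higher, beside 7.33%, with a median log2 difference of 0.00. At 4 h, 9 (10.5%) were lower, beside 9.93%, and 8 (9.30%) were higher, beside 9.36%. At 24 h, 2 were lower (1.67% of all probe sets) and 2 higher (2.76%), and at 48 h none was lower (0.932%) and 1 was higher (0.747%). The unprimed array of 8 h was the highest of the 8 arrays for 12 of the 86 (14.0%, beside 8.80% of all probe sets), 6 of which belong to the 17 probe sets of lipid remodelling. The shares of the 86 at 4 h lie near those of all probe sets. Those at 8 h lie above them in both directions, as does the share highest in the unprimed array of 8 h, and these distances were not tested.

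Among 26 probe sets for signalling genes, 1 was at least 2-fold lower at 8 h (7.91% of all probe sets) and 5 were higher (7.33%), with a median of 0.44, and at 4 h none was lower (9.93%) and 3 were higher (9.36%). PHR1 had values of 11.13, 11.02, 10.73 and 10.70 in primed seedlings, against 10.23, 10.19, 10.52 and 10.69 in unprimed seedlings, and differed by less than 2-fold at all times (0.90, 0.83, 0.21 and 0.01). SPX2, a close relative of SPX1, gave a log2 difference of -0.80 at 8 h, and SPX4 gave 0.83. PHF1, which lets phosphate transporters leave the endoplasmic reticulum, gave 0.47 and -0.50 at 4 and 8 h, and NLA, a ubiquitin ligase that removes these transporters, gave 0.50 and 0.74. The zinc-finger gene ZAT6 was higher by 7.28 at 4 h and 4.86 at 8 h, WRKY75 by 2.1 and 1.78, and WRKY6 by 1.35 at 8 h. SIZ1, a SUMO ligase, was higher by 1.28 at 4 h in 1 of its 2 probe sets and gave 0.33 in the other. AT3G01310, a relative of yeast Vip1, an inositol pyrophosphate kinase, was higher by 1.39 at 8 h. ALMT1, a malate channel of the root, gave -1.71 and -1.91 at 8 and 24 h. PHO2, IPS1 and AT4 have no probe set.

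Transport and phosphate release genes moved in both directions. PHO1;H1, a relative of the xylem-loading exporter PHO1, gave log2 differences of -1.65 and -2.18 at 4 and 8 h, and PHO1 gave -1.27 and -0.41. The plastid transporter gene PHT2;1 gave -0.96 and -2.08. The thylakoid transporter gene PHT4;1 was higher by 2.1 and 1.22, and G3Pp4, a relative of G3Pp1, by 2.01 and 2.09. The probe set shared by PHT1;1 and PHT1;2 gave -0.47 and -0.51. At 24 h G3Pp4 was still higher by 1.14, and PHO1 gave -0.74 and -0.72 at 24 and 48 h. Of 19 probe sets for acid phosphatases, ribonucleases and related enzymes, 5 were lower and none was higher at 4 h, and 3 were lower and 1 was higher at 8 h, beside 9.93%, 9.36%, 7.91% and 7.33% of all probe sets. PAP12 gave -1.61 and -1.20, PAP7 gave -1.79 and -1.28, AT1G13750, annotated as a calcineurin-like phosphoesterase, gave -2.08 and -1.81, and PAP10 gave -1.14 and -0.70. PAP18 was higher by 1.49 at 8 h. RNS1, a secreted ribonuclease, gave -2.07 at 4 h and 2.64 at 48 h.

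The lipid remodelling list has 17 probe sets, of which 2 were lower and 3 higher at 4 h, and 4 were lower and 1 was higher at 8 h, with medians of 0.00 and -0.03, beside the same shares of all probe sets. SQD1, which supplies the substrate of SQD2, gave -0.32 at 4 h and -1.59 at 8 h. The phospholipase D gene PLDZ2 gave 0.36 and -1.66. Both had their highest value in the unprimed array of 8 h, as the 10 genes did. MGD2, the nearest relative of MGD3, was at 2.0 in all primed arrays and reached 2.38 in the unprimed array of 8 h, a difference of -0.38. The digalactolipid synthase genes gave positive differences, with 3.54 and 2.09 for DGD2 and 2.16 and 0.65 for DGD1 at 4 and 8 h. The phosphodiesterase genes GDPD5 and GDPD2 gave -2.09 and -1.59 at 4 h, and -1.88 and -0.43 at 8 h, whereas GDPD4 gave 0.66 and 0.99. NPC3, a phospholipase C, gave -0.47 and -0.75 at these times and -1.02 at 24 h.

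**Figure D4:**
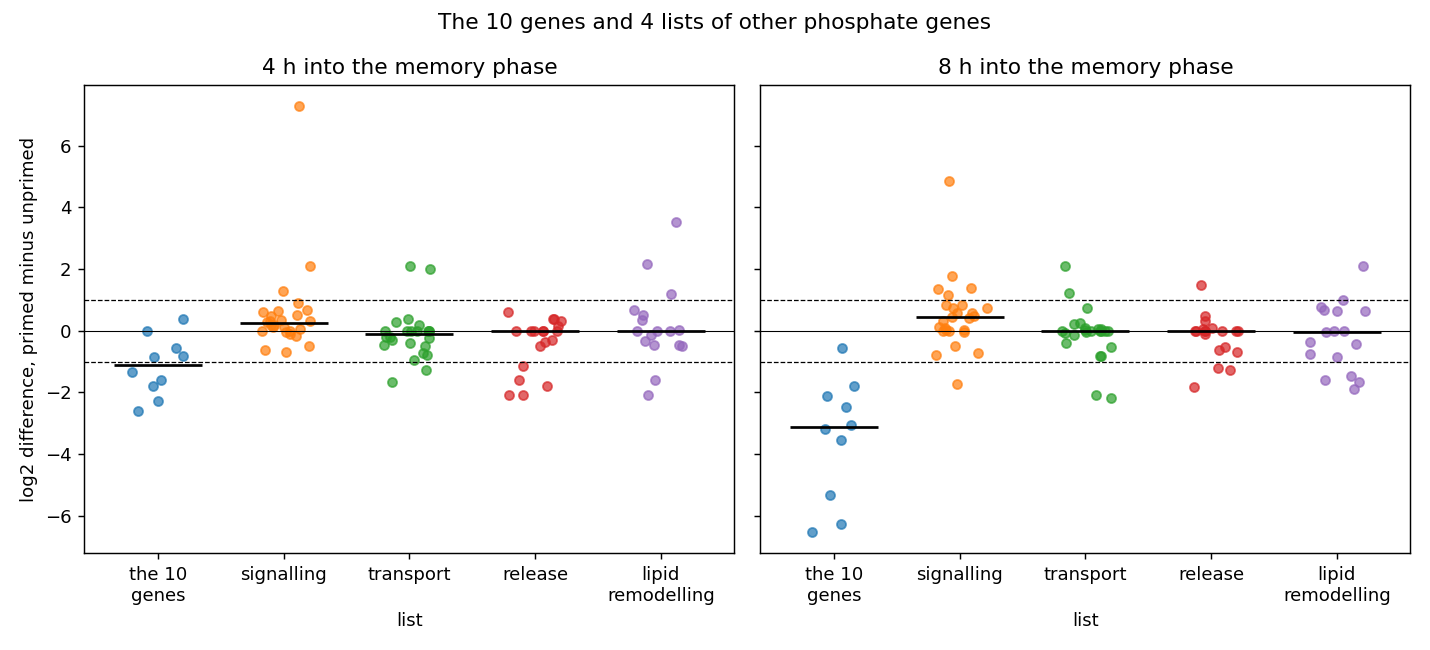
Log2 difference between primed and unprimed seedlings (y axis) at 4 h (left) and 8 h (right) for the 10 genes and the probe sets of the 4 other phosphate lists (x axis), 1 point per probe set, with list medians as bars and 2-fold as dashed lines. At 8 h the median is -3.13 for the 10 genes and lies between -0.03 and 0.44 for the other lists.

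The mean effect of priming over the 4 times was tested with limma for all probe sets, with the time point as a block. No probe set reached an adjusted p of 0.05 (0 of 22746, 0%), and 984 with a positive and 1045 with a negative effect had an unadjusted p under 0.05. Even HSP21, with log2 differences of 12.0, 12.62, 11.58 and 8.85 at the 4 times, was not called. The lack of calls is therefore not read as a lack of effect. Of the 86 other phosphate probe sets, 4 with a positive and 8 with a negative effect were under this unadjusted limit, and the smallest adjusted p among them was 0.42, that of NPC3 (mean effect -0.72, standard error 0.11). Time points are not replicates, and the standard error also holds changes of the effect over time. No p is given for the 10 genes, which were listed on this contrast.

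The genes whose pattern over the 8 arrays was most like the mean of the 10 did not include any of the 4 phosphate lists among the first 10. They were sought among 2871 probe sets that are assigned to 1 gene and span at least 2 on the log2 scale. The highest Pearson correlations over the 8 arrays were those of AT1G60590, annotated as a polygalacturonase (0.957), AT1G48100, of the same enzyme family (0.951), AT2G34810, annotated with a FAD-binding domain (0.947), and AT5G59350, of unknown function (0.941). They were followed by the methyl esterase gene MES18 (0.940), NHL12 (0.930), ECS1 (0.930), AT4G16140, annotated as a proline-rich protein (0.926), AT1G80850, annotated as a methyladenine glycosylase (0.923), and the chlorophyllase gene CLH1 (0.920). AT1G60590 had values of 2.43, 2.56, 3.86 and 4.07 in primed seedlings, against 3.76, 7.74, 3.17 and 3.72 in unprimed seedlings. The mean of the 10 genes is by far highest in the unprimed array of 8 h. A high value there in the first genes follows from the search and is not a further result. Of the 86 probe sets of the phosphate lists, 14 met this span, the closest being PHO1;H1 and GDPD5 (0.717 each), at ranks 227 and 228. Several that span less, and so were not ranked, had higher correlations, among them SQD1 (0.870), MGD2 (0.844), UGP3 (0.823) and PLDZ2 (0.757).

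Because phosphate uptake genes act largely in roots, root and shoot markers were read beside them. Of 10 root markers, 8 were at least 2-fold lower in primed seedlings at 4 h (9.93% of all probe sets) and 6 at 8 h (7.91%), with median log2 differences of -1.54 and -1.16, and none was lower at 24 or 48 h. The markers did not move alike. At 8 h CASP1 (0.39), SCR (-0.44) and TIP2;3 (0.00, both arrays at 2.08, near the floor) were within 2-fold. The median log2 value of the root markers lay between 5.50 and 7.60 in primed arrays and between 7.31 and 8.48 in unprimed arrays, and NRT2.1 was at the floor throughout. In unprimed seedlings, where the phosphate genes rose to their high point from 4 to 8 h, no root marker was at least 2-fold higher and the median of the root markers was -0.12. In primed seedlings between 8 and 24 h, 5 root markers were at least 2-fold higher (6.92% of all probe sets), with a median of 0.80, beside 0.82 for the phosphate genes. The shoot markers were higher in this step too, 3 of 8 at least 2-fold, with a median of 0.66. From 24 to 48 h in primed seedlings, the median was -0.45 for the root markers and 0.89 for the phosphate genes. Against unprimed seedlings, none of 8 shoot markers was at least 2-fold lower at any time, with a median of -0.28 at 8 h. LHCB2.1 was higher by 2.21 at 4 h and 1.25 at 8 h. The part of root material in the differences of the 10 genes was not tested.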

How the data were processed

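RNA of whole seedlings was hybridized to 8 Affymetrix ATH1 arrays, 1 per condition. The deposited values are log2 expression, normalized by the authors, with a floor at 2.0. GCRMA and RMA are named, with no version, in the submitters' processing notes, and the methods refer to an earlier publication. The deposited differences between primed and unprimed arrays are the authors' own and were not used. The 2 deposited tables were equal in every cell. Of 22810 probe sets, 64 controls were left out. Differences are the primed minus the unprimed value of the same time, rounded to 2 decimals, and 2-fold is a log2 difference of 1. The mean effect was fitted by limma 3.58.1 (R 4.3.3), blocked by time point (3 residual degrees of freedom), with Benjamini-Hochberg adjustment over all probe sets, after it had been tested on simulated data.

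The members and the lists were chosen with earlier results of these data known. All members are named. Of each list, up to 6 genes past 2-fold with the largest mean absolute difference are named, together with PHR1, SPX2, SPX4, PHO1, PHF1, NLA, PHT1;1, MGD2, DGD2 and PLDZ2, and the 10 probe sets most like the members' mean. GDPD4, UGP3 and LHCB2.1 were named after their values were seen, and other genes of the lists enter the counts only. Symbols follow RefSeq (TAIR10.1), in which all listed genes were found. The number of arrays limits the precision. Alternatives were quantile normalization, centring on 8 reference genes, a raised floor, leaving out dim probe sets, other controls, 1.5-fold and 4-fold limits, the other deposited table, and limma without the block, with a trend, or without each pair of arrays.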

Additional observations from a re-analysis of the deposited data

Results flagged for a closer look

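The difference of G3Pp1 ran in opposite directions at different times, with log2 values of -2.61 (4 h) and 2.59 (24 h), primed minus unprimed, each from 1 primed and 1 unprimed array. RNS1 gave -2.07 at 4 h and 2.64 at 48 h. The change of the difference between these times was not tested, since each condition has 1 array.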

How the results depend on the processing

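A higher floor of 2.39, quantile normalization and the other deposited table left all counts of genes past the limit within 1.5 times of those given. Centring on reference genes moved the median of all probe sets by -0.12, 0.13, 0.20 and -0.03 at 4, 8, 24 and 48 h. It left 1 other phosphate probe set lower at 24 h, beside 1.03% of all probe sets. No called difference of a single member reversed under any of these settings or the other controls. Under each of the other controls, though, 24 differences of single members moved by more than 0.44 on the log2 scale, and 16 by less. Against the mean over all 4 unprimed arrays, the members' median became -1.94 at 8 h and -1.10 at 24 h. At 24 h, 6 members were lower (0.914% of all probe sets) and 0 higher (1.75%). At 48 h, 2 other phosphate probe sets were higher (1.20%). This control includes the unprimed array of 8 h, the highest array for each of the members. The mean of the unprimed arrays of 4, 24 and 48 h was a control chosen after seeing the data. With it the median at 8 h was -1.46, with 7 members lower (7.35% of all probe sets). At 24 h, 2 members were lower (1.04%) and 0 higher (1.82%), and at 48 h 0 were lower (1.33%). At 48 h, 2 other phosphate probe sets were higher (1.15%). Against this control the difference at 8 h was -1.93 for PS2 and -1.67 for MGD3.

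Without dim probe sets, 5 members were left, of which 3 were lower at 4 h, 5 at 8 h and 0 at 24 and 48 h. Of the 47 other phosphate probe sets then left, 4 were higher at 4 h and 6 lower at 8 h. At 24 h, 1 of these was lower and 1 higher, and at 48 h 0 were higher. Of all 11430 probe sets then left, 12.7% were lower and 10.3% higher at 4 h, and 10.1% were lower at 8 h. These shares were 1.14% and 2.87% at 24 h, and 0.534% and 0.735% at 48 h. At a 1.5-fold limit, 3 members were lower at 24 h and 3 higher at 48 h. Of the other phosphate probe sets, 14 were lower and 14 higher at 4 h, and 18 and 20 at 8 h. At 24 h, 10 of them were lower and 10 higher, and at 48 h 4 were lower. Of all probe sets, 17.0% were lower and 15.6% higher past this limit at 4 h, and 14.6% and 14.9% at 8 h. These shares were 6.07% and 7.12% at 24 h, and 3.88% and 2.46% at 48 h. At a 4-fold limit, 2 members were lower at 4 h and 0 at 24 and 48 h, and 0 were higher at 48 h. Of the other phosphate probe sets, 3 were lower at 4 h, and 2 were lower and 3 higher at 8 h. At 24 h, 0 of them were lower and 0 higher. Of all probe sets, 2.75% were lower and 3.54% higher past this limit at 4 h, and 1.86% and 1.84% at 8 h. These shares were 0.251% and 0.545% at 24 h, and 0.145% and 0.185% at 48 h. limma called 0 probe sets with a trend, after quantile normalization and without each pair of arrays in turn, 8 without the block and 6 without dim probe sets. The unadjusted counts of the first fit were 984 higher and 1045 lower.
No paired analysis by replicate number was possible because each condition has 1 array.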
